A study of Mus musculus with 18 samples.

Results

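The 47 genes described here encode parts of the lysosome, the acidic compartment in which a cell breaks down proteins, lipids and sugars. They were listed by name as lysosomal membrane, hydrolase and V-ATPase genes and matched to gene identifiers through the GRCm38 annotation, and all 47 were found among the 51912 genes of the table. By role they comprised 16 genes of the V-ATPase (6 of its V0 sector, 8 of its V1 sector and 2 accessory proteins), 6 proteins of the lysosomal membrane, 2 channels, 10 proteases, 11 other hydrolases and soluble helper proteins, and 2 transcription factors. RNA was sequenced from B cells of C57BL/6 mice that were WT or Sh3gl1-/-, 3 mice per group, which gave 18 libraries. The WT mice were littermates, and Sh3gl1-/- mice lack endophilin A2, a protein of endocytosis, in every cell of the body and not in B cells alone. For each genotype there were untreated transitional B cells, the immature cells that have just reached the spleen, untreated follicular B cells, the mature resting cells, and follicular B cells treated with CD40L for 14 h. CD40L is the ligand with which T cells activate B cells through CD40. No follicular cells were cultured without CD40L, so the effects of culture and of the ligand cannot be told apart.

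Total counts per library ranged from 12404693 to 14552376 in transitional WT, from 13633364 to 16514817 in transitional Sh3gl1-/-, from 12894124 to 15501892 in follicular WT and from 12942695 to 15380875 in follicular Sh3gl1-/- cells. After CD40L they ranged from 15246596 to 18366045 in WT and from 12415906 to 16325447 in Sh3gl1-/- cells. Each of the 47 genes passed the filter on low counts in every comparison, so none was left out. Counts of Sh3gl1 itself were 591, 467 and 377 in transitional WT against 7, 4 and 11 in Sh3gl1-/- cells, 528, 569 and 447 against 2, 3 and 1 in follicular cells, and 839, 802 and 929 against 20, 22 and 11 after CD40L. The genotype labels and the Sh3gl1 counts thus went together in all 18 libraries.

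The lysosome is kept acidic by the V-ATPase, a rotary proton pump whose V1 sector hydrolyses ATP in the cytosol and whose V0 sector carries protons through the membrane. Acid activates the cathepsins and the lipid and sugar hydrolases, and LAMP proteins coat the inner face of the membrane. TFEB and TFE3 are related transcription factors that switch on lysosomal genes through the CLEAR element, whose core is the E-box CACGTG, and that leave the nucleus when mTORC1 is active on the lysosome. In B cells the compartment is best known for cutting internalized antigen into peptides and for trimming the invariant chain from MHC class II, a step in which cathepsin S takes part.

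Promoter sequence was available in the RefSeq table (build GRCm38.p6, 250 bases before to 50 bases after each start) for 38 of the 47 genes, in 47 windows. The E-box CACGTG, which reads the same on both strands, occurred in 15 of these 38 genes (39.5%), against 2187 of 27025 genes in the whole promoter table (8.09%) and 11.9% of the genes that were tested in follicular cells. Its longer form TCACGTGA, which contains the shorter one, occurred in 8 of the 38 (21.1%) against 1.12% of all genes and 2.32% of the genes tested in follicular cells. A match is a string of letters and not evidence that a factor binds there. The stretches below are shown because they hold the boxes of genes to which the results return, with each CACGTG in capitals, and they run 5′ to 3′ on the strand of the gene.
Lamp1 (chr8:13159083-13159160, + strand): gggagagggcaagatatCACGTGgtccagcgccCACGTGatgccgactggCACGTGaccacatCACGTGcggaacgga
Cln3 (chr7:126583335-126583402, - strand): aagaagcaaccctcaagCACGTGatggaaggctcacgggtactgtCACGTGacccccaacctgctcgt
Mcoln1 (chr8:3500431-3500496, + strand): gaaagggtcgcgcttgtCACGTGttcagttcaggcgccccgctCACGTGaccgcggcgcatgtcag
Mcoln2 (chr3:146150085-146150124, + strand): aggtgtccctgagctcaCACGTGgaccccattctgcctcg
Ctsa (chr2:164833744-164833772, + strand): aacaatgagcaaactgtCACGTGatgcag
Ctsd (chr7:142387903-142387942, - strand): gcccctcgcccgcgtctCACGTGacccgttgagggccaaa
Lgmn (chr12:102439119-102439158, - strand): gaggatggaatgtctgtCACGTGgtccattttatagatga
Atp6v1a (chr16:44139368-44139407, - strand): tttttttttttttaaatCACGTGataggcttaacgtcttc
Gla (chrX:134601177-134601249, - strand): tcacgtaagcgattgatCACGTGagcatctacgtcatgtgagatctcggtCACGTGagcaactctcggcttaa
Lamp1, a LAMP protein of the lysosomal membrane, held 4 boxes between 61 and 15 bases before its start, more than any other of the 38 genes. Mcoln1 and Mcoln2, which encode cation channels of the endosome and lysosome, held 2 boxes and 1 box. The box of Ctsa shown is 1 of 2 in its window, the other lying just after its start. No CACGTG was found in the windows of Grn, Psap, Ctsz, Lamp2, Scarb2, Tfeb or Tfe3, and Ctsb had no window in the table.

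The labelled cell states were first set against their markers. Cd79a, part of the B cell receptor complex, was between 2058 and 4829 TPM (the authors' estimate of transcript abundance per length, scaled to the same sum in each library) in all 18 libraries. Cd93, a marker of transitional cells, was 9.90 to 15.6 TPM in the 6 transitional libraries and 2.14 to 4.58 TPM in the 6 follicular libraries, and 4 of 5 transitional markers fell and 4 of 5 follicular markers rose between the states in each genotype. The fifth follicular marker, Ccr7, fell in WT (log2 fold change -0.23, standard error 0.08, adjusted p = 0.0498) and had -0.21 (standard error 0.08, adjusted p = 0.128) in Sh3gl1-/- cells. Without the Sh3gl1-/- libraries numbered 1, 2 follicular markers rose in that genotype. Genes of other cells were also present. The summed TPM of 11 macrophage and monocyte genes, of which Lyz2 was the most abundant on average over all 18 libraries, was 584, 680.2 and 551 in transitional WT, 907, 525 and 728 in transitional Sh3gl1-/-, 111, 117 and 139.6 in follicular WT, 259.9, 115 and 211 in follicular Sh3gl1-/-, 24.0, 35.2 and 31.7 in CD40L-treated WT and 40.6, 19.2 and 27.7 in CD40L-treated Sh3gl1-/- libraries. After CD40L much of the sum was Adgre1, with 14.1, 27.2 and 23.0 TPM in WT and 12.2, 10.8 and 13.8 TPM in Sh3gl1-/- libraries. Lyz2 had 5.04, 4.05 and 5.10 TPM and 23.3, 5.37 and 7.98 TPM in the same libraries. Among the defining macrophage genes, C1qb had 1555, 1481 and 894 counts in transitional WT libraries, 101, 134 and 119 in follicular WT libraries and 0, 0 and 1 after CD40L, and C1qc and Mertk were at 0 in all 6 CD40L-treated libraries. Cathepsins, Grn and Psap are also strongly expressed by macrophages, so these values are given beside the results they move with. In each cell state the Sh3gl1-/- library numbered 1 had the highest sum of 8 neutrophil genes, 1110.0, 239 and 312 TPM in the transitional, 1567, 354 and 534 TPM in the follicular and 343, 96.4 and 103 TPM in the CD40L-treated Sh3gl1-/- libraries. The main counts in Sh3gl1-/- cells are also given without these libraries where that moved them by more than 1.5 times.

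Levels of different genes were compared on the TPM scale. Ctss, cathepsin S, was the highest of the 47 genes in each of the 6 groups, with 1165, 1192 and 1069 TPM in transitional WT, 1368, 1321 and 1278 TPM in follicular WT and 1218, 1193 and 1006 TPM in CD40L-treated WT libraries. Its lowest library (1006 TPM) was above the highest library of any other of the 47 genes (925 TPM, Psap). Psap encodes prosaposin, the precursor of the saposins that help hydrolases reach their lipids, and was the next gene in order only in transitional cells of both genotypes. That place was taken in follicular cells by Ctsh, cathepsin H, and after CD40L by Ctsz, cathepsin Z. At the low end, Gla, the α-galactosidase A gene, had 1.15, 1.93 and 1.54 TPM in transitional and 0.860, 1.10 and 1.63 TPM in follicular WT cells, while in CD40L-treated WT cells Ctsl, cathepsin L, was lowest at 0.840, 2.09 and 0.630 TPM. The mean of the highest gene was between 645.6 and 1105 times that of the lowest across the 6 groups, and 13 to 20 of the 47 genes reached at least 100 TPM.

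Within the V-ATPase the TPM levels of subunits differed far more than the groups did. Atp6v0e and Atp6v1f, small subunits of the V0 and V1 sectors, had means over the 6 groups of 444 and 430.1 TPM. Atp6v1a, whose product forms the catalytic A subunit with the ATP site, had 32.0 TPM, and Atp6v0a2, 1 of the alternative a subunits of V0, had 5.81 TPM. The summed TPM of the 16 V-ATPase genes was 2781 ± 31.1 (mean ± SD, n = 3) in transitional WT, 2484 ± 79.5 in follicular WT and 2095 ± 55.4 in CD40L-treated WT cells, and 2630.2 ± 160.2, 2383 ± 107 and 2279.5 ± 15.3 in the Sh3gl1-/- groups. Over all 47 genes the sum was 8106 ± 183, 6604 ± 98.8 and 5393 ± 248 TPM in WT and 7269 ± 406, 6336 ± 347 and 5681 ± 210.3 TPM in Sh3gl1-/- cells. In both genotypes every transitional library lay above every follicular library in the summed TPM of all 47 genes, and every follicular library above every CD40L-treated library. TPM does not carry the library scaling used in the tests below. The factors of that scaling were 1.03 to 1.05 in follicular WT and 0.890 to 0.951 in CD40L-treated WT libraries. A lower summed TPM after CD40L is therefore not by itself a decrease on the tested scale.

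**Figure D1:**
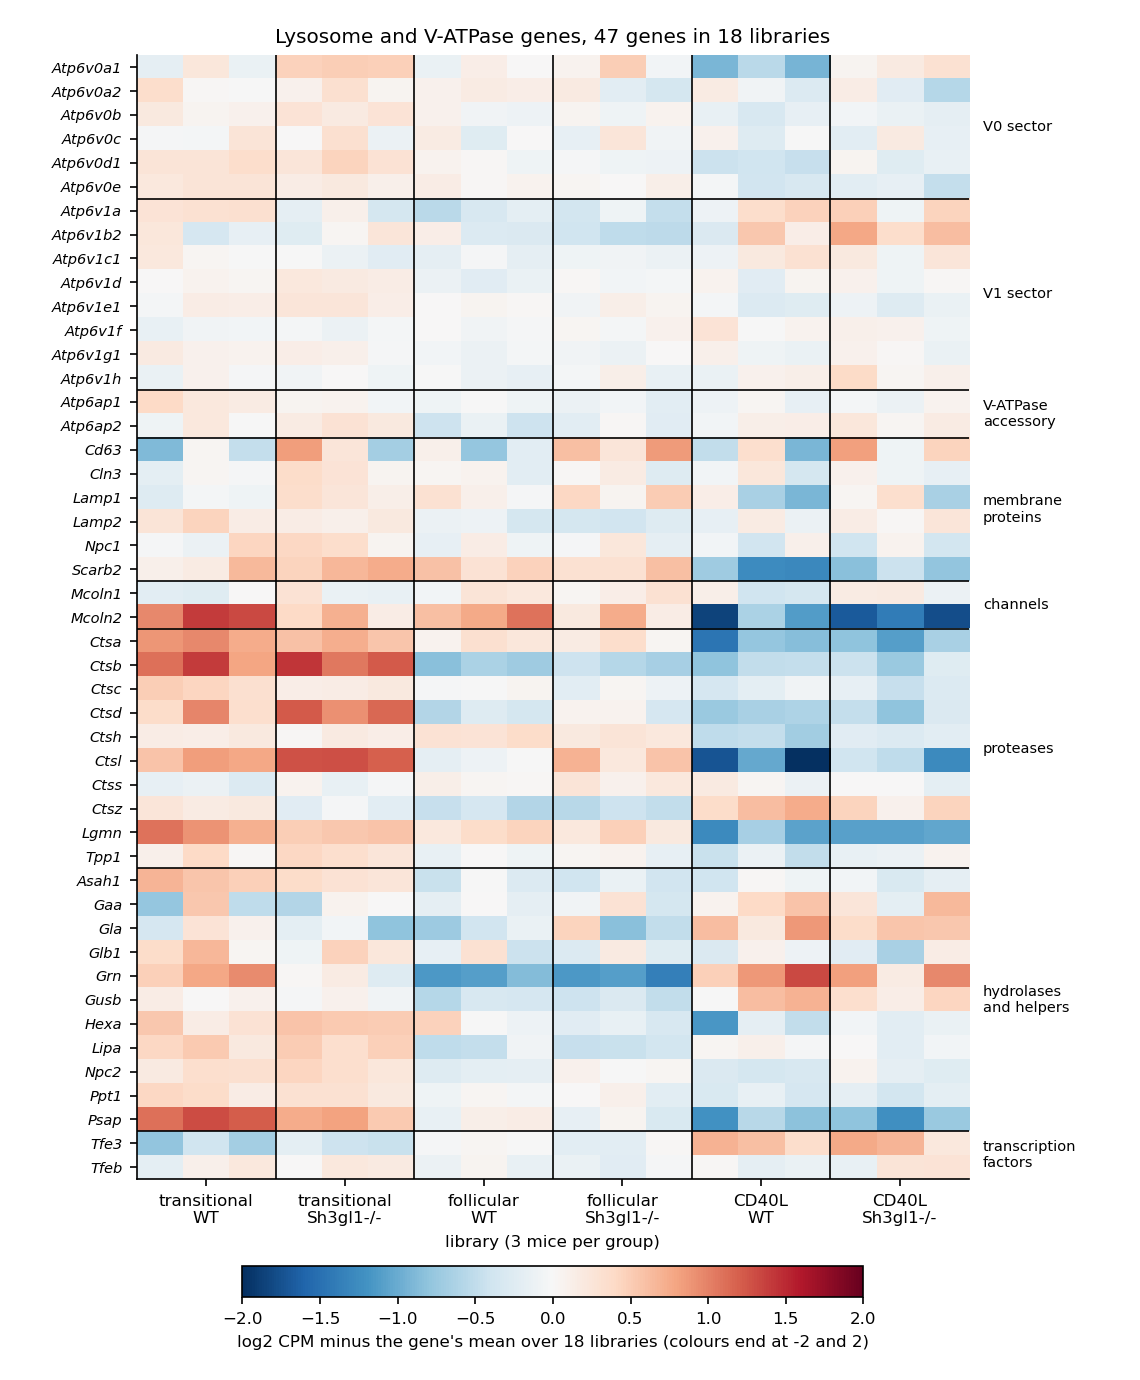
Expression of the 47 genes (rows, grouped by role) in the 18 libraries (columns, grouped by cell state and genotype), drawn as log2 CPM (counts scaled to library size) minus the mean of that gene over all libraries, with colours ending at 2 below and 2 above. Proteases and soluble hydrolases such as Ctsb, Ctsd, Psap and Asah1 are highest in the transitional libraries, Mcoln2, Lgmn and Scarb2 are lowest after CD40L, and most V1 subunits stay near their mean.

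The first comparison asked how lysosomal genes differ between transitional and follicular B cells. In WT cells 19 of the 47 genes were lower and 2 were higher in follicular than in transitional cells, at an adjusted p under 0.05 by the quasi-likelihood test of edgeR, with p-values adjusted by Benjamini-Hochberg over 14580 genes. Of all genes tested, 14.2% were lower and 11.7% higher, against 40.4% and 4.26% of the 47. In Sh3gl1-/- cells 17 were lower and 0 higher (36.2% and 0%), where all genes gave 6.72% and 3.71%, and 1 gene, Ctss, was higher at an unadjusted p under 0.05 and by DESeq2. The median log2 fold change over the 47 genes was -0.20 in WT and -0.27 in Sh3gl1-/- cells, where the median of all genes tested was 0.03 and -0.00. By role, 7 of 10 proteases and 7 of 11 other hydrolases and helpers fell in each genotype, against 4 of 16 V-ATPase genes in WT and 2 of 16 in Sh3gl1-/- cells. Without the 3 Sh3gl1-/- libraries numbered 1, the counts in Sh3gl1-/- cells were 2 of 10 proteases, 4 of 11 hydrolases and helpers and 1 of 16 V-ATPase genes, where 3.44% of all genes fell. DESeq2 called 7 of 16 V-ATPase genes lower in WT and 5 of 16 in Sh3gl1-/- cells (43.8% and 31.2%, against 16.6% and 8.4% of all genes). Replicate numbers as a block within genotype gave 4 of 16 in Sh3gl1-/- cells, where 8.4% of all genes fell. In the same cells 1 fit of all 18 libraries gave 2 of 10 proteases and 1 of 16 V-ATPase genes, where 698 of 15117 genes fell. In 24 of the 47 genes, in each genotype, all 3 follicular libraries lay below all 3 transitional libraries, which held for 20.9% of all genes in WT and 15.6% in Sh3gl1-/- cells.

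Among the proteases, Ctsb (ENSMUSG00000021939, chromosome 14 from 63122462 to 63145923; all gene positions are those of GRCm38) encodes cathepsin B. It had 684, 833 and 549 CPM (counts scaled to library size) in transitional WT and 179, 206 and 194 CPM in follicular WT libraries, a log2 fold change of -1.83 (standard error 0.14, adjusted p = 2.59e-06), which is 3.55-fold lower. In Sh3gl1-/- cells it had 858, 663 and 744 against 237, 213 and 201 CPM, a log2 fold change of -1.81 (standard error 0.14, adjusted p = 4.58e-06). The groups lay far apart in both genotypes, and the reads of Ctsb overlap those of Fdft1 on the other strand, so a share of them may belong to that gene. Ctsd (ENSMUSG00000007891, chromosome 7 from 142375911 to 142388038) encodes cathepsin D, the main aspartic protease of the lysosome. It had 97.7, 149.7 and 95.6 against 51.0, 63.5 and 59.4 CPM in WT, with a log2 fold change of -0.97 (standard error 0.17, adjusted p = 0.00102), and 178, 143 and 169 against 79.9, 80.3 and 60.1 CPM in Sh3gl1-/- cells, with -1.17 (standard error 0.17, adjusted p = 5.16e-04). Its promoter carries 2 CACGTG boxes, 1 of which is printed above, and no follicular library reached a transitional one. Ctsl fell in WT from 7.44, 8.93 and 8.52 to 4.40, 4.69 and 4.96 CPM (log2 fold change -0.82, standard error 0.18, adjusted p = 0.00544) and Ctsz fell from 566, 536 and 547 to 347, 381 and 318 CPM (log2 fold change -0.65, standard error 0.08, adjusted p = 1.03e-04). Ctsa, the protective protein of other hydrolases, and Ctsc, the dipeptidase that activates granule proteases, also fell in both genotypes, with log2 fold changes of -0.65 and -0.40 in WT and of -0.44 and -0.26 in Sh3gl1-/- cells.

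Ctss rose in WT, where 7 of the other 9 proteases fell. It had 1193, 1234 and 1101 CPM in transitional and 1446, 1369 and 1366 CPM in follicular WT libraries, a log2 fold change of 0.25 (standard error 0.07, adjusted p = 0.0199). In Sh3gl1-/- cells it had 1403, 1206 and 1313 and 1600.4, 1418 and 1554 CPM, with a log2 fold change of 0.21 (standard error 0.07, adjusted p = 0.0815). The difference was small in both genotypes and was called only in WT, and the genotypes were not shown to differ in it (adjusted p of the difference = 0.900). When replicate numbers entered the fit as a block within genotype, the Sh3gl1-/- change passed as well (adjusted p = 0.0294). Ctsh, the second protease by TPM in transitional cells, had a log2 fold change of 0.15 (standard error 0.06, adjusted p = 0.0916) in WT and of 0.10 (standard error 0.06, adjusted p = 0.397) in Sh3gl1-/- cells.

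Among the hydrolases and helpers, Grn (ENSMUSG00000034708, chromosome 11 from 102430315 to 102437048) encodes progranulin, which is cut into granulins in the lysosome and supports its enzymes. Grn had 187, 229.9 and 259 CPM in transitional and 60.7, 62.9 and 73.7 CPM in follicular WT libraries, a log2 fold change of -1.77 (standard error 0.14, adjusted p = 3.46e-06), and 137, 151 and 112 against 61.0, 62.7 and 52.1 CPM in Sh3gl1-/- libraries, a log2 fold change of -1.20 (standard error 0.14, adjusted p = 7.19e-05). The follicular values of the genotypes were close, while the transitional WT values were all above the transitional Sh3gl1-/- values. Psap (ENSMUSG00000004207, chromosome 10 from 60277627 to 60302597) had 1666, 1927 and 1799 against 700.4, 841 and 859.9 CPM in WT (log2 fold change -1.16, standard error 0.11, adjusted p = 8.54e-06) and 1304, 1364 and 1119 against 695, 807 and 633 CPM in Sh3gl1-/- cells (log2 fold change -0.84, standard error 0.10, adjusted p = 1.50e-04). Lipa, the acid lipase that frees cholesterol from its esters, had 125, 135 and 108 against 66.3, 67.6 and 89.9 CPM in WT (log2 fold change -0.71, standard error 0.12, adjusted p = 8.22e-04) and 134, 118 and 131 against 68.6, 68.9 and 72.5 CPM in Sh3gl1-/- cells (log2 fold change -0.88, standard error 0.12, adjusted p = 3.06e-04). Both showed no overlap between transitional and follicular libraries in either genotype. Asah1, acid ceramidase, Npc2, a cholesterol carrier of the lysosomal lumen, and Gusb, β-glucuronidase, fell in both genotypes, with log2 fold changes of -0.80, -0.48 and -0.48 in WT and of -0.61, -0.30 and -0.41 in Sh3gl1-/- cells. Gla and Gaa, the galactosidase and acid glucosidase genes, were not called in either genotype. Glb1, β-galactosidase, was called in neither by the main fit, and in WT when replicate numbers were a block within genotype (log2 fold change -0.43, adjusted p = 0.142 without and 0.00709 with the block).

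Of the 6 membrane proteins 1 fell in each genotype, and 0 in Sh3gl1-/- cells without the libraries numbered 1. That gene was Lamp2, a LAMP protein that also serves the uptake of cytosolic proteins, which went from 188, 213 and 174 to 145, 146 and 124 CPM in WT (log2 fold change -0.46, standard error 0.09, adjusted p = 0.00270) and from 175, 168 and 179.9 to 124, 121 and 131 CPM in Sh3gl1-/- cells (log2 fold change -0.49, standard error 0.09, adjusted p = 0.00362). Lamp1, whose promoter holds 4 boxes, had 22.4, 26.1 and 25.3 and 33.3, 28.8 and 26.3 CPM in WT, with a log2 fold change of 0.27 (standard error 0.14, adjusted p = 0.164). Of the V-ATPase genes, Atp6v0d1, a stalk subunit of V0, and Atp6ap2, the accessory protein known as the prorenin receptor, fell in both genotypes, with log2 fold changes of -0.28 and -0.35 in WT and -0.41 and -0.36 in Sh3gl1-/- cells. Atp6v1a fell in WT from 109, 112 and 113 to 62.6, 73.0 and 79.1 CPM (log2 fold change -0.63, standard error 0.13, adjusted p = 0.00297), and its values in Sh3gl1-/- cells overlapped, 80.0, 97.8 and 71.4 against 70.2, 85.9 and 65.0 CPM (log2 fold change -0.18, standard error 0.13, adjusted p = 0.434). Tfe3 (ENSMUSG00000000134, chromosome X from 7762560 to 7775202) rose in WT from 13.9, 18.1 and 14.9 to 23.6, 24.6 and 23.9 CPM, a log2 fold change of 0.63 (standard error 0.13, adjusted p = 0.00381), while Tfeb had a log2 fold change of -0.11 (standard error 0.12, adjusted p = 0.567).

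**Figure D2:**
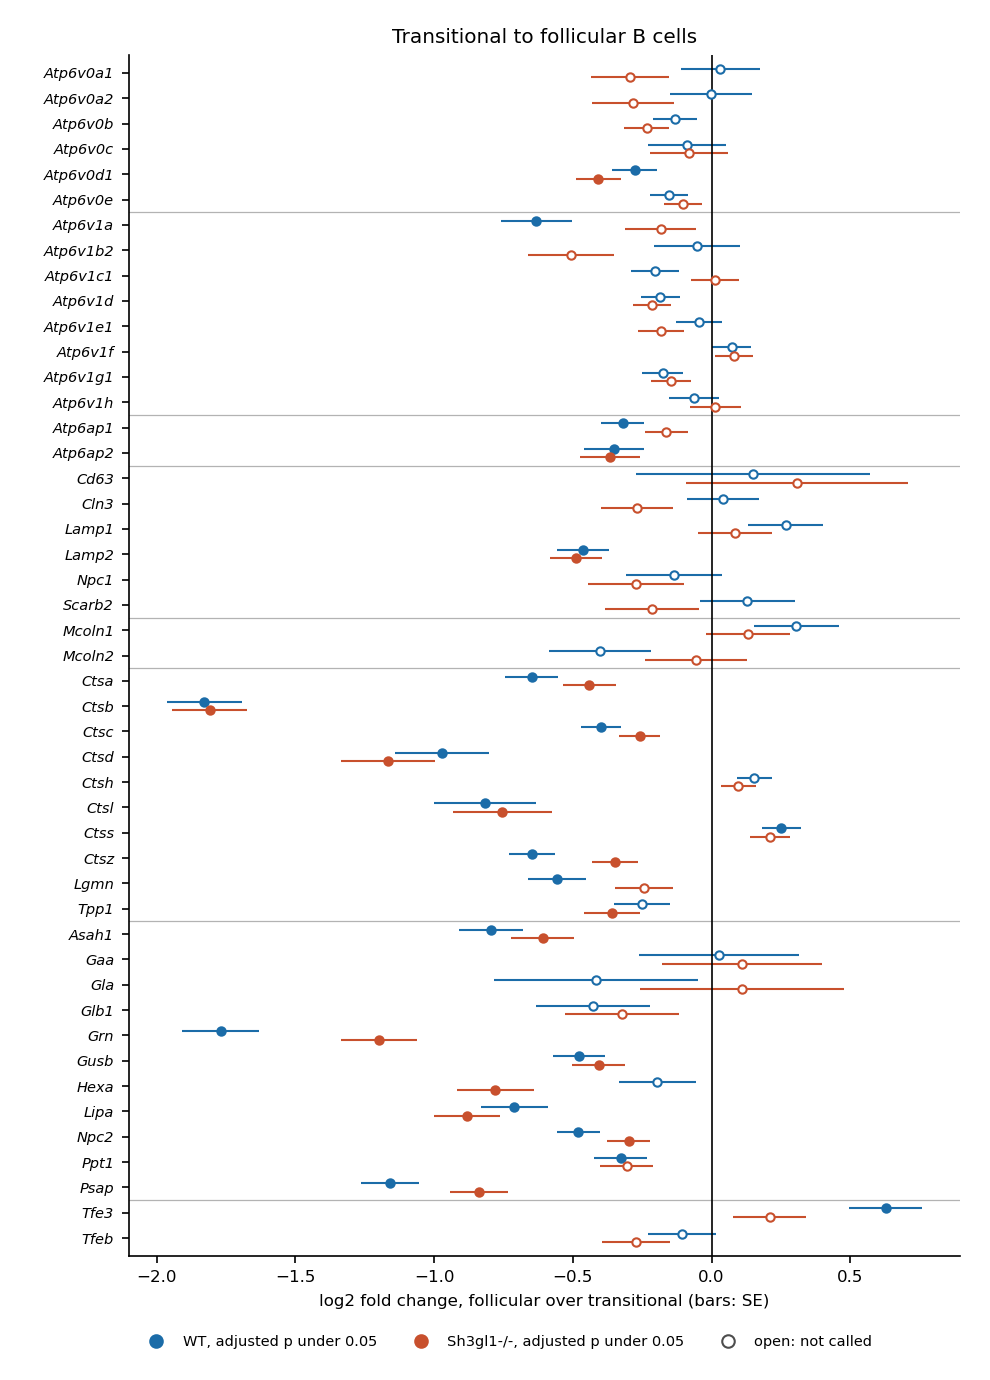
Log2 fold change from transitional to follicular cells (x axis) for each of the 47 genes (y axis, grouped by role) in WT (blue) and Sh3gl1-/- cells (orange). Points are edgeR estimates, bars are 1 standard error, and filled points passed an adjusted p of 0.05. Ctsb and Grn lie farthest to the left in WT, with log2 fold changes of -1.83 and -1.77, and Tfe3 farthest to the right at 0.63.

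The genes called lower in the genotypes overlapped: 15 genes were shared, which is 78.9% of the 19 in WT and 88.2% of the 17 in Sh3gl1-/- cells. They were Atp6v0d1, Atp6ap2, Lamp2, Ctsa, Ctsb, Ctsc, Ctsd, Ctsl, Ctsz, Npc2, Lipa, Gusb, Psap, Grn and Asah1. A test of the difference between the genotypes called 0 of the 47 genes by edgeR and by DESeq2, with 6 at an unadjusted p under 0.05 by edgeR. Of all genes, edgeR called 0.0686% and DESeq2 2.49%, and 1992 of 14580 had an unadjusted p under 0.05 by edgeR. The lowest p belonged to Grn, Hexa and Ctsz. The decrease of Grn was smaller in Sh3gl1-/- cells by 0.57 on the log2 scale (SE 0.19, adjusted p = 0.214), that of Ctsz was smaller by 0.30 (adjusted p = 0.281), and Hexa, a subunit of β-hexosaminidase, had a difference of -0.58 (standard error 0.20, adjusted p = 0.216). When replicate numbers entered the fit as a block within genotype, the Grn difference had an adjusted p of 0.0418. It was the single one of the 47 called, in a fit where 0.679% of all genes were called. The same block added Glb1, Mcoln2 and Tpp1 to the genes that fell in WT (adjusted p = 0.00709, 0.00923 and 0.0281) and Atp6v0b, Atp6v1b2 and Ppt1 to those that fell in Sh3gl1-/- cells (adjusted p = 0.0325, 0.00691 and 0.0208). Leaving out the Sh3gl1-/- libraries numbered 1, those with the most neutrophil RNA, left 7 of the 47 genes lower in Sh3gl1-/- cells, namely Atp6v0d1, Ctsb, Ctsd, Lipa, Hexa, Psap and Grn (14.9%, against 3.44% of all genes), and leaving out transitional library 2, follicular library 1 or follicular library 3 of that genotype left 11, 11 and 10. The 2 genes that rose in WT became 1, Tfe3, without transitional library 3 or follicular library 1.

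Genes of other cells fell together with the lysosomal genes in this comparison. All 11 macrophage and monocyte genes fell in WT and 10 of 11 in Sh3gl1-/- cells, the median being -3.47 on the log2 scale in WT. The mean summed TPM of the list went from 605 ± 67.0 to 123 ± 15.0 in WT and from 720.0 ± 191 to 195 ± 74.0 in Sh3gl1-/- cells (± SD, n = 3). Ctsb and C1qb had their lowest transitional values in the same library, WT number 3, whereas Grn had its highest there. Lyz2, of the same list as C1qb, had 226, 260.1 and 297.8 TPM in the transitional WT libraries, the highest of these in number 3. Of 5 plasma cell genes 2 fell in each genotype, Jchain and Tnfrsf17, and their summed TPM went from 525 ± 119 to 89.1 ± 32.2 in WT and from 2467 ± 1464 to 126 ± 12.3 in Sh3gl1-/- cells. Of 5 marginal zone genes 3 fell in each genotype (Cd1d1, Myof and S1pr3). Of 7 B cell genes 5 fell in WT and 2, Cd79b and Ms4a1, in Sh3gl1-/- cells (1 without the libraries numbered 1), and 0 rose. Of 6 genes of activated B cells Cd86 fell and Traf1 rose in each genotype, and Cd86 was not called in Sh3gl1-/- cells without those libraries. Of 7 T cell genes 1 rose in each genotype, with estimates above 0 for 5 in WT and 7 in Sh3gl1-/- cells, and none rose in Sh3gl1-/- cells without the libraries numbered 1. Of 4 NK cell genes 0 were called, with 4 and 3 estimates above 0, of 6 dendritic cell and 5 erythroid genes 0 were called, and of 8 neutrophil genes 0 were called, with 6 and 7 above 0. The part of these cells in the decrease of the lysosomal genes was not tested. In bulk RNA fewer cells of a type and less RNA per cell cannot be told apart.

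**Figure D3:**
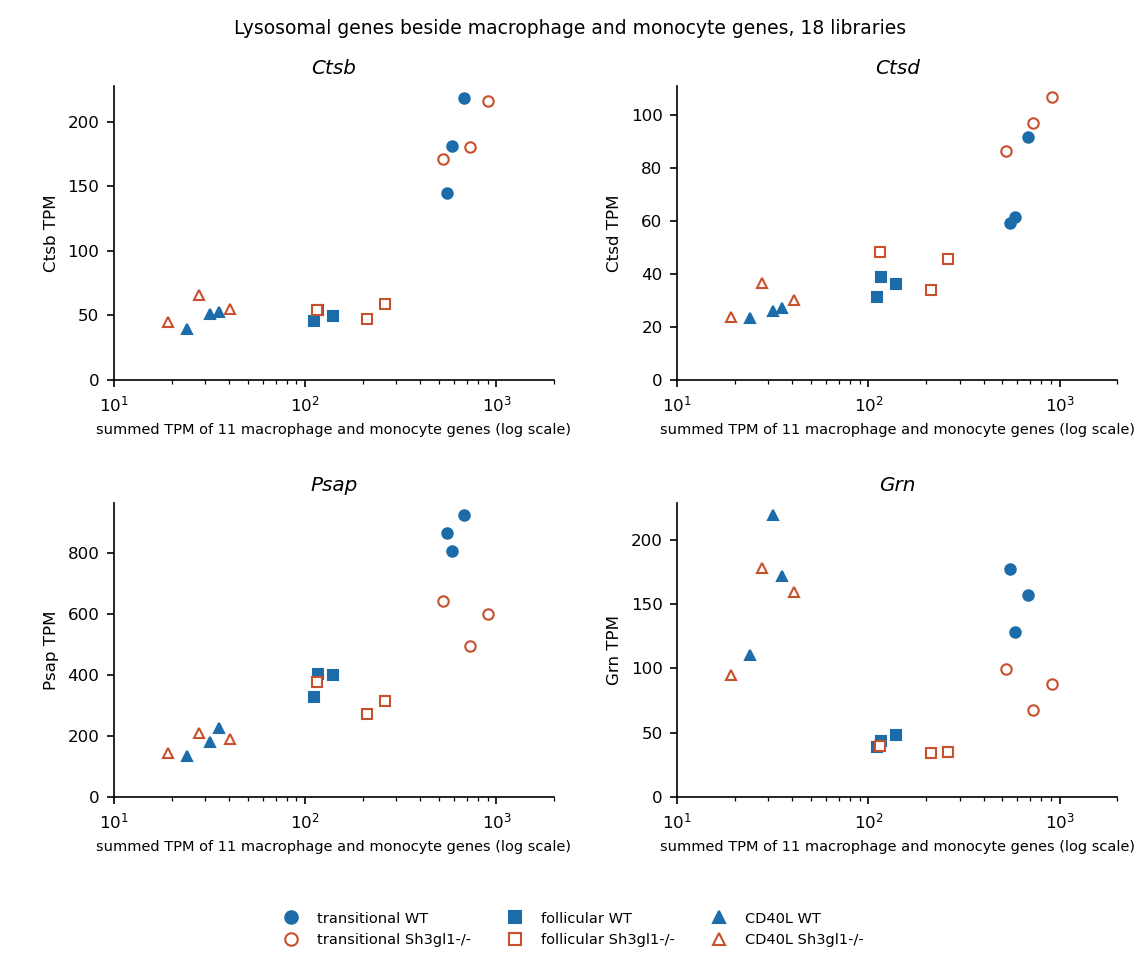
Levels of Ctsb, Ctsd, Psap and Grn (TPM, y axis) in each of the 18 libraries against the summed TPM of 11 macrophage and monocyte genes (x axis, log scale), with symbols for cell state and genotype. Ctsb and Ctsd are highest where the macrophage sum is highest, in the transitional libraries, while Grn is high both there and in the CD40L-treated libraries, where the sum is lowest.

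Lysosomal genes outside the 47 were described in the same way, over 92 genes of the same pathway (other hydrolases, other membrane proteins, sorting factors, nutrient sensing and tissue-specific V-ATPase isoforms), of which 84 were tested. In WT 25 fell and 6 rose (29.8% and 7.14%, against 14.2% and 11.7% of all genes), and in Sh3gl1-/- cells 12 fell and 0 rose (14.3% and 0%, against 6.72% and 3.71%). In Sh3gl1-/- cells 30 had an unadjusted p under 0.05 in either direction, as had 3483 of all 14580 genes. Without the Sh3gl1-/- libraries numbered 1, 7 of the 84 fell in that genotype, against 3.44% of all genes. Other hydrolases gave 10 lower and 2 higher of 28 in WT and 8 lower and 0 higher in Sh3gl1-/- cells (5 lower without the libraries numbered 1), other membrane proteins 4 and 1 lower of 18, and sorting factors 7 and 1 lower of 16 (0 in Sh3gl1-/- cells without the libraries numbered 1). Of the V-ATPase isoforms 2 of 9 were tested, and 1 fell in each genotype. Cd68, a LAMP family protein that marks macrophages, fell from 45.2 ± 9.51 to 11.6 ± 1.45 CPM in WT (mean ± SD, n = 3; log2 fold change -1.96, standard error 0.21, adjusted p = 2.77e-05) and had a log2 fold change of -2.16 (standard error 0.21, adjusted p = 2.33e-05) in Sh3gl1-/- cells. Pla2g15, a lysosomal phospholipase, fell by a log2 fold change of -1.36 (standard error 0.14, adjusted p = 2.32e-05) in WT and -1.44 (standard error 0.14, adjusted p = 2.60e-05) in Sh3gl1-/- cells. Of 20 nutrient-sensing genes 4 were higher and 3 lower in WT, and 0 were higher and 1 lower in Sh3gl1-/- cells (0 without the libraries numbered 1). Rraga, the RagA GTPase that brings mTORC1 to the lysosome, rose from 17.1 ± 1.63 to 29.0 ± 4.52 CPM in WT (log2 fold change 0.77, standard error 0.13, adjusted p = 9.31e-04), and Arsa, arylsulfatase A, and Dnase2a, the acid DNase, rose with log2 fold changes of 0.72 and 0.67. Acp2, an acid phosphatase, fell in Sh3gl1-/- cells (log2 fold change -1.02, standard error 0.16, adjusted p = 0.00114). Tfec, the family member related to TFEB and TFE3 that is known from macrophages, averaged 2.54 ± 0.288 CPM in transitional and 0.0251 ± 0.0434 CPM in follicular WT cells, the latter under 3 counts per library, so no fold is given.

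The second comparison asked what happens to lysosomal genes when follicular cells are cultured with CD40L. In WT cells 8 of the 47 genes rose and 12 fell (17.0% and 25.5%), in a comparison where 23.6% of all genes tested rose and 25.7% fell. In Sh3gl1-/- cells 8 rose and 10 fell (17.0% and 21.3%), against 20.6% and 21.7% of all genes. The number of lysosomal genes that changed was therefore no larger than for genes at large, and the median log2 fold change was -0.06 in both genotypes, against -0.08 and -0.03 for all genes. Scaling by library totals alone moved the median of all genes in WT to -0.22 and gave 4 higher and 19 lower of the 47 (8.51% and 40.4%), against 19.2% and 30.8% of all genes under that scaling. By role, 4 of 11 hydrolases and helpers rose and 3 fell in WT, 1 of 10 proteases rose and 4 fell, and 2 of 16 V-ATPase genes rose and 3 fell, where library totals alone gave 2 and 4, 1 and 7, and 1 and 5. In Sh3gl1-/- cells the proteases that fell by edgeR also included Ctsd and Ctss (log2 fold changes -0.47 and -0.26, adjusted p = 0.0189 and 0.0305). In WT these had -0.30 and -0.05 (adjusted p = 0.107 and 0.691). The genotypes were not shown to differ in either (adjusted p of the difference = 0.853 and 0.647).

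Grn rose most. It had 60.7, 62.9 and 73.7 CPM before and 188, 245 and 337 CPM after CD40L in WT libraries, 3.83-fold higher (log2 fold change 1.94, standard error 0.22, adjusted p = 6.49e-06), and 61.0, 62.7 and 52.1 against 238, 151 and 262 CPM in Sh3gl1-/- libraries (log2 fold change 1.87, standard error 0.22, adjusted p = 1.21e-05). The lowest treated library was more than 2-fold above the highest untreated one in both genotypes. The level after CD40L varied between libraries more than before, with an SD of 74.9 against 6.88 CPM in WT. Ctsz (ENSMUSG00000016256, chromosome 2 from 174427493 to 174439039) was the protease that rose, from 347, 381 and 318 to 620.3, 735 and 799 CPM in WT (log2 fold change 1.01, standard error 0.12, adjusted p = 1.11e-05) and from 327, 359.5 and 339.8 to 649, 508 and 654 CPM in Sh3gl1-/- cells (log2 fold change 0.80, standard error 0.12, adjusted p = 1.20e-04). Its reads overlap those of Nelfcd on the other strand. Gusb rose from 52.8, 63.1 and 62.3 to 77.8, 120.3 and 128 CPM in WT (log2 fold change 0.84, standard error 0.16, adjusted p = 6.96e-04) and from 58.9, 64.5 and 55.7 to 99.7, 86.1 and 106 CPM in Sh3gl1-/- cells (log2 fold change 0.69, standard error 0.16, adjusted p = 0.00381). Gla was low throughout and rose in WT from 2.20, 2.78 and 3.31 to 5.59, 4.14 and 6.61 CPM (log2 fold change 0.95, standard error 0.34, adjusted p = 0.0303). Lipa, which had fallen between transitional and follicular cells, rose with log2 fold changes of 0.35 (standard error 0.12, adjusted p = 0.0278) in WT and 0.32 (standard error 0.12, adjusted p = 0.0437) in Sh3gl1-/- cells. Grn, Ctsz, Gusb and Lipa were thus lower in follicular than in transitional cells and higher again after CD40L in both genotypes. The follicular libraries enter both steps, so the changes are not independent of each other.

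The genes that fell after CD40L included a channel, a membrane receptor and several proteases. Mcoln2 (ENSMUSG00000011008, chromosome 3 from 146149833 to 146195513) encodes TRPML2, a cation channel of recycling endosomes and lysosomes found mainly in lymphoid cells. It had 56.0, 62.5 and 78.7 CPM before and 10.2, 23.7 and 17.0 CPM after CD40L in WT libraries, 3.94-fold lower (log2 fold change -1.98, standard error 0.26, adjusted p = 2.55e-05), and 42.5, 61.6 and 41.1 against 11.5, 14.0 and 10.8 CPM in Sh3gl1-/- libraries (log2 fold change -2.02, standard error 0.26, adjusted p = 3.54e-05). Mcoln1, the more widely expressed channel with 2 boxes in its promoter, had log2 fold changes of -0.38 (standard error 0.17, adjusted p = 0.0859) and -0.10 (standard error 0.17, adjusted p = 0.669) and was called in neither genotype. Scarb2 (ENSMUSG00000029426, chromosome 5 from 92441314 to 92506833) encodes LIMP-2, which carries β-glucocerebrosidase to the lysosome. It had 16.9, 13.8 and 15.6 against 6.90, 4.74 and 4.65 CPM in WT (log2 fold change -1.53, standard error 0.21, adjusted p = 3.87e-05) and 14.0, 14.0 and 17.2 against 6.35, 8.39 and 6.51 CPM in Sh3gl1-/- cells (log2 fold change -1.11, standard error 0.21, adjusted p = 7.05e-04). No treated library overlapped an untreated one for Mcoln2 or Scarb2.

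Lgmn (ENSMUSG00000021190, chromosome 12 from 102394084 to 102439813) encodes legumain, the asparaginyl endopeptidase that takes part in antigen processing. It had 250.1, 281 and 295 against 90.2, 137 and 103 CPM in WT (log2 fold change -1.35, standard error 0.14, adjusted p = 3.43e-06) and 251, 303 and 249.9 against 102, 103 and 105 CPM in Sh3gl1-/- cells (log2 fold change -1.39, standard error 0.14, adjusted p = 3.57e-06). Ctsa had 250.2, 297 and 276 against 86.6, 139 and 132 CPM in WT (log2 fold change -1.23, standard error 0.17, adjusted p = 3.75e-05) and a log2 fold change of -1.05 (standard error 0.17, adjusted p = 2.03e-04) in Sh3gl1-/- cells. Psap fell by a further step, from 700.4, 841 and 859.9 to 335, 529 and 444 CPM in WT (log2 fold change -0.91, standard error 0.16, adjusted p = 4.27e-04) and from 695, 807 and 633 to 446, 333 and 468 CPM in Sh3gl1-/- cells (log2 fold change -0.79, standard error 0.16, adjusted p = 0.00149). Psap and Grn, which had fallen together from transitional to follicular cells, thus went in opposite directions after CD40L. Ctsl was near the lower end of the measured range, with 4.40, 4.69 and 4.96 against 1.52, 2.47 and 1.10 CPM in WT (log2 fold change -1.49, standard error 0.34, adjusted p = 0.00219). Ctsb, the gene with the largest change between transitional and follicular cells, had 182, 226 and 229 CPM after CD40L in WT, with a log2 fold change of 0.11 (standard error 0.13, adjusted p = 0.523), and its values overlapped those of untreated cells.

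In the V-ATPase, Atp6v1a rose in both genotypes, from 62.6, 73.0 and 79.1 to 84.3, 117 and 125 CPM in WT (log2 fold change 0.57, standard error 0.18, adjusted p = 0.0146) and from 70.2, 85.9 and 65.0 to 126, 86.1 and 123 CPM in Sh3gl1-/- cells (log2 fold change 0.58, standard error 0.18, adjusted p = 0.0160). Of the 6 V0 genes 3 fell in WT and 1 in Sh3gl1-/- cells, or 0 without the Sh3gl1-/- libraries numbered 1. Atp6v0a1 had the largest decrease of the V-ATPase genes in WT, from 47.9, 57.7 and 52.7 to 27.8, 36.3 and 27.7 CPM (log2 fold change -0.82, standard error 0.16, adjusted p = 7.17e-04), and had 55.0, 74.3 and 50.7 against 54.9, 59.3 and 64.8 CPM in Sh3gl1-/- cells (log2 fold change -0.02, standard error 0.16, adjusted p = 0.915). Atp6v0d1 fell in WT (log2 fold change -0.46, standard error 0.10, adjusted p = 0.00154) and had -0.06 (standard error 0.10, adjusted p = 0.682) in Sh3gl1-/- cells. Atp6v0e fell in both, with log2 fold changes of -0.35 and -0.35. Atp6v1b2, the B subunit of the ATP-hydrolysing ring, rose in Sh3gl1-/- cells from 89.1, 82.4 and 81.9 to 199.9, 149 and 181 CPM (log2 fold change 1.04, standard error 0.18, adjusted p = 4.39e-04), and in WT had 128, 96.6 and 95.6 and 96.2, 170.0 and 129 CPM (log2 fold change 0.27, standard error 0.18, adjusted p = 0.228). The other 6 V1 genes were called in neither genotype. Tfe3 rose from 23.6, 24.6 and 23.9 to 38.8, 36.2 and 30.6 CPM in WT (log2 fold change 0.52, standard error 0.15, adjusted p = 0.0117) and from 20.6, 20.7 and 24.4 to 40.3, 38.5 and 27.9 CPM in Sh3gl1-/- cells (log2 fold change 0.68, standard error 0.15, adjusted p = 0.00291). Tfeb was called in neither, with log2 fold changes of -0.06 (SE 0.15) and 0.25 (SE 0.15). Of the LAMP genes, Lamp2 rose in Sh3gl1-/- cells (log2 fold change 0.45, standard error 0.11, adjusted p = 0.00591) and had 0.12 (standard error 0.11, adjusted p = 0.396) in WT, whereas Lamp1 was called in neither.

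**Figure D4:**
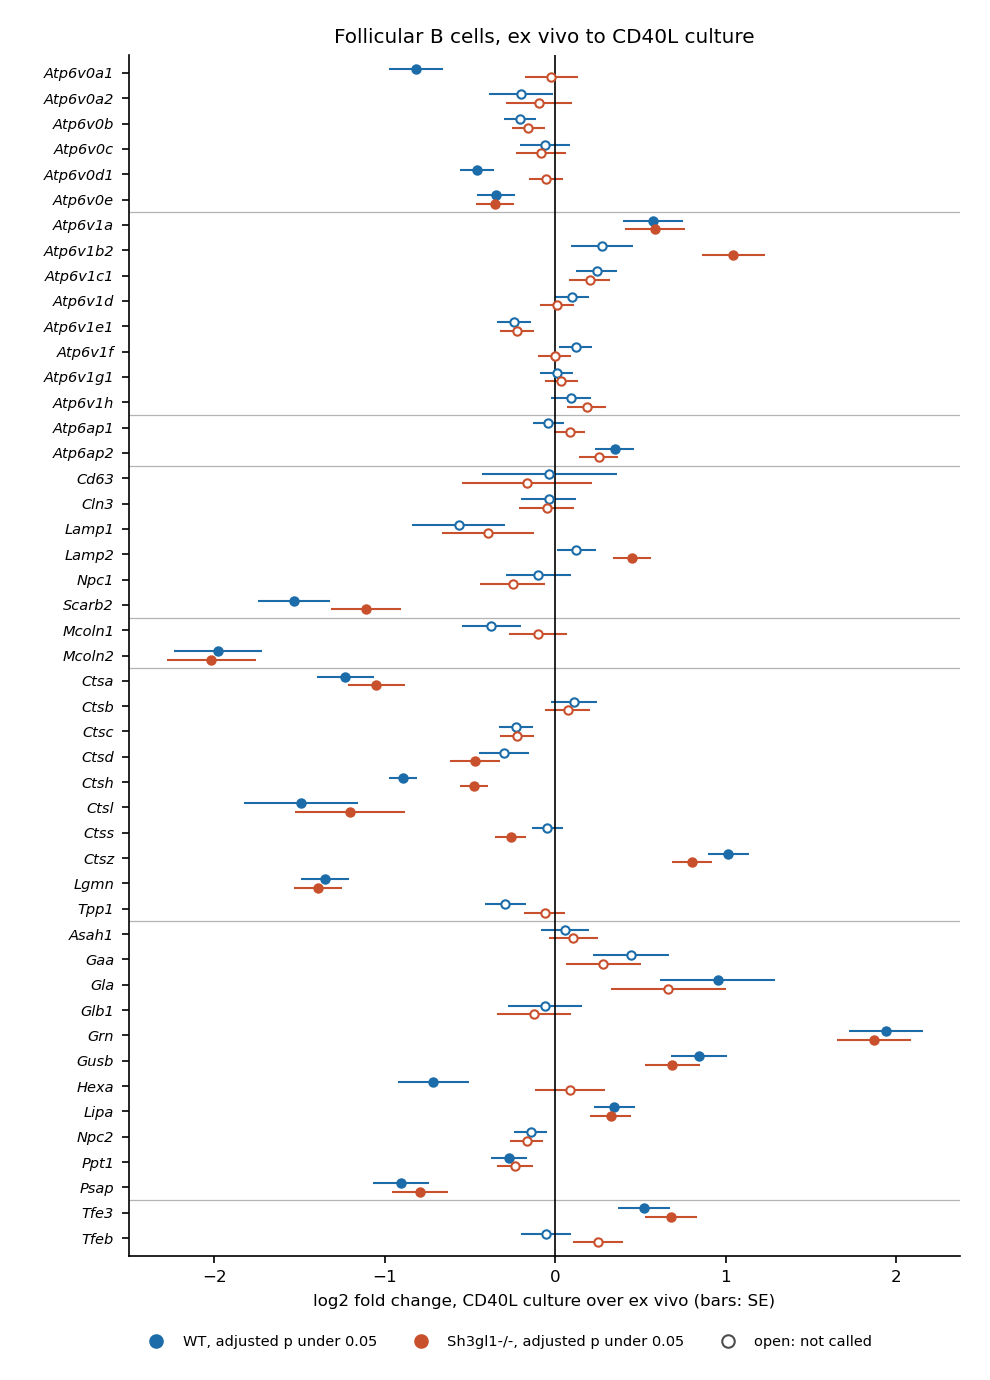
Log2 fold change from untreated to CD40L-treated follicular cells (x axis) for each of the 47 genes (y axis, grouped by role) in WT (blue) and Sh3gl1-/- cells (orange). Points are edgeR estimates, bars are 1 standard error, and filled points passed an adjusted p of 0.05. Grn lies farthest to the right (1.94 in WT and 1.87 in Sh3gl1-/- cells) and Mcoln2 farthest to the left (-1.98 and -2.02).

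Of the genes called after CD40L, 6 rose in both genotypes (Atp6v1a, Ctsz, Lipa, Gusb, Grn and Tfe3), 75.0% of the 8 in each. A further 8 fell in both (Atp6v0e, Scarb2, Mcoln2, Ctsa, Ctsh, Ctsl, Lgmn and Psap), 66.7% of the 12 in WT and 80.0% of the 10 in Sh3gl1-/- cells. The test of the difference between the genotypes called 0 of the 47 genes by edgeR, with 5 at an unadjusted p under 0.05, and 1 by DESeq2 (Ctsh). Of all 14460 genes, 1278 had an unadjusted p under 0.05 by edgeR, and DESeq2 called 0.173%. The lowest p by edgeR belonged to Atp6v0a1, Ctsh and Atp6v1b2, with differences of 0.79 (standard error 0.22, adjusted p = 0.464), 0.42 (standard error 0.12, adjusted p = 0.464) and 0.77 (standard error 0.26, adjusted p = 0.470) on the log2 scale. No gene of the whole table was called by edgeR in that test (0.0%). Ppt1 fell in WT at an adjusted p of 0.0455, and at 0.0671 with replicate numbers as a block within genotype. In WT the number of genes that rose was 4 without the follicular library numbered 1 and 5 without the treated library numbered 3. Without the Sh3gl1-/- libraries numbered 1, 5 rose and 7 fell in Sh3gl1-/- cells (10.6% and 14.9%, against 13.3% and 14.1% of all genes). The macrophage sum was lower after CD40L (means of 30.3 TPM in WT and 29.2 TPM in Sh3gl1-/- cells) while Grn was higher. Of 8 macrophage and monocyte genes tested, 6 fell in WT and 7 in Sh3gl1-/- cells (4 without the libraries numbered 1) and 1, Adgre1, rose in both, and all 7 T cell, 4 NK cell and 5 erythroid genes and 6 of 8 neutrophil genes fell in each genotype. Genes of B cells and their states fell too, namely 5 of 7 B cell genes in WT and 4 in Sh3gl1-/- cells, 4 and 3 of 5 marginal zone genes, 3 and 4 of 5 transitional markers and 4 of 5 follicular markers in each. In the other direction, 1 transitional and 1 follicular marker rose in each genotype, and 1 marginal zone gene rose in WT. The summed TPM of the transitional markers, of which Ly6d was the most abundant, went from 5070 ± 259 to 7237 ± 579 in WT (mean ± SD, n = 3). In Sh3gl1-/- cells it went from 3799 ± 192 to 6005 ± 293. Of 6 dendritic cell genes 3 fell in each genotype and 1 and 2 rose, and of 4 plasma cell genes 2 fell in each and 0 and 1 rose. Without the libraries numbered 1, 1 dendritic cell gene rose in Sh3gl1-/- cells, and 1 plasma cell gene fell and 0 rose. Their part in the decrease of the other lysosomal genes was not tested.

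Among the lysosomal genes outside the 47, 81 of 92 were tested after CD40L, and 5 rose and 31 fell in WT (6.17% and 38.3%, against 23.6% and 25.7% of all genes) and 7 rose and 25 fell in Sh3gl1-/- cells (8.64% and 30.9%, against 20.6% and 21.7%). Without the libraries numbered 1, 3 rose and 18 fell in Sh3gl1-/- cells, against 13.3% and 14.1% of all genes. Other hydrolases gave 14 lower and 1 higher of 28 in WT, other membrane proteins 10 lower and 1 higher of 18, and sorting factors 3 lower and 1 higher of 16. Ifi30, the thiol reductase GILT that unfolds antigen for processing, rose from 99.2 ± 6.19 to 309 ± 75.3 CPM in WT (mean ± SD, n = 3; log2 fold change 1.61, standard error 0.16, adjusted p = 1.83e-06) and with a log2 fold change of 1.31 (standard error 0.16, adjusted p = 1.50e-05) in Sh3gl1-/- cells. M6pr, a mannose 6-phosphate receptor that brings new hydrolases to the lysosome, rose with log2 fold changes of 1.28 (standard error 0.12, adjusted p = 8.89e-07) and 1.03 (standard error 0.11, adjusted p = 8.40e-06). Acp5, the tartrate-resistant acid phosphatase, fell from 239 ± 18.2 to 9.49 ± 1.56 CPM in WT (log2 fold change -4.68, standard error 0.14, adjusted p = 8.71e-11) and with a log2 fold change of -4.56 (standard error 0.14, adjusted p = 1.50e-10) in Sh3gl1-/- cells. Tpcn1, a two-pore channel of the endosome and lysosome, fell with log2 fold changes of -2.62 (standard error 0.47, adjusted p = 4.14e-04) and -1.94 (standard error 0.46, adjusted p = 0.00392). Slc29a3, a lysosomal nucleoside transporter, rose (log2 fold changes 0.62 and 0.76), and Ctsk, cathepsin K, fell in Sh3gl1-/- cells (log2 fold change -2.37, standard error 0.67, adjusted p = 0.0113). Sort1, the sorting receptor sortilin, averaged 0.433 ± 0.279 CPM before and 0 CPM after CD40L in WT cells, too near the limit of 3 counts for a fold. Mcoln2 was thus not the single lysosomal cation channel that was lower after CD40L.

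Across all comparisons 17 of the 47 genes were never called by edgeR in the main fits. The block within genotype called Glb1 in WT and Atp6v0b in Sh3gl1-/- cells between transitional and follicular cells. Calls of these genes under the other alternatives, such as library totals alone or DESeq2, were not counted here. The 17 genes were 9 of the 16 V-ATPase genes (Atp6v0a2, Atp6v0b, Atp6v0c, Atp6v1c1, Atp6v1d, Atp6v1e1, Atp6v1f, Atp6v1g1 and Atp6v1h), 4 of the 6 membrane proteins (Lamp1, Cd63, Npc1 and Cln3), the channel Mcoln1, the hydrolases Gaa and Glb1, and Tfeb. Atp6v0c, which encodes the proteolipid ring that turns in the membrane, varied least, with log2 fold changes between -0.09 and 0.03 over all comparisons. Cd63, a tetraspanin of late endosomes, had values between -0.17 and 0.83, but at 1.35 to 4.58 CPM its estimates carried wide errors. At 3 mice per group a gene that was not called is not shown to be unchanged.

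**Figure D5:**
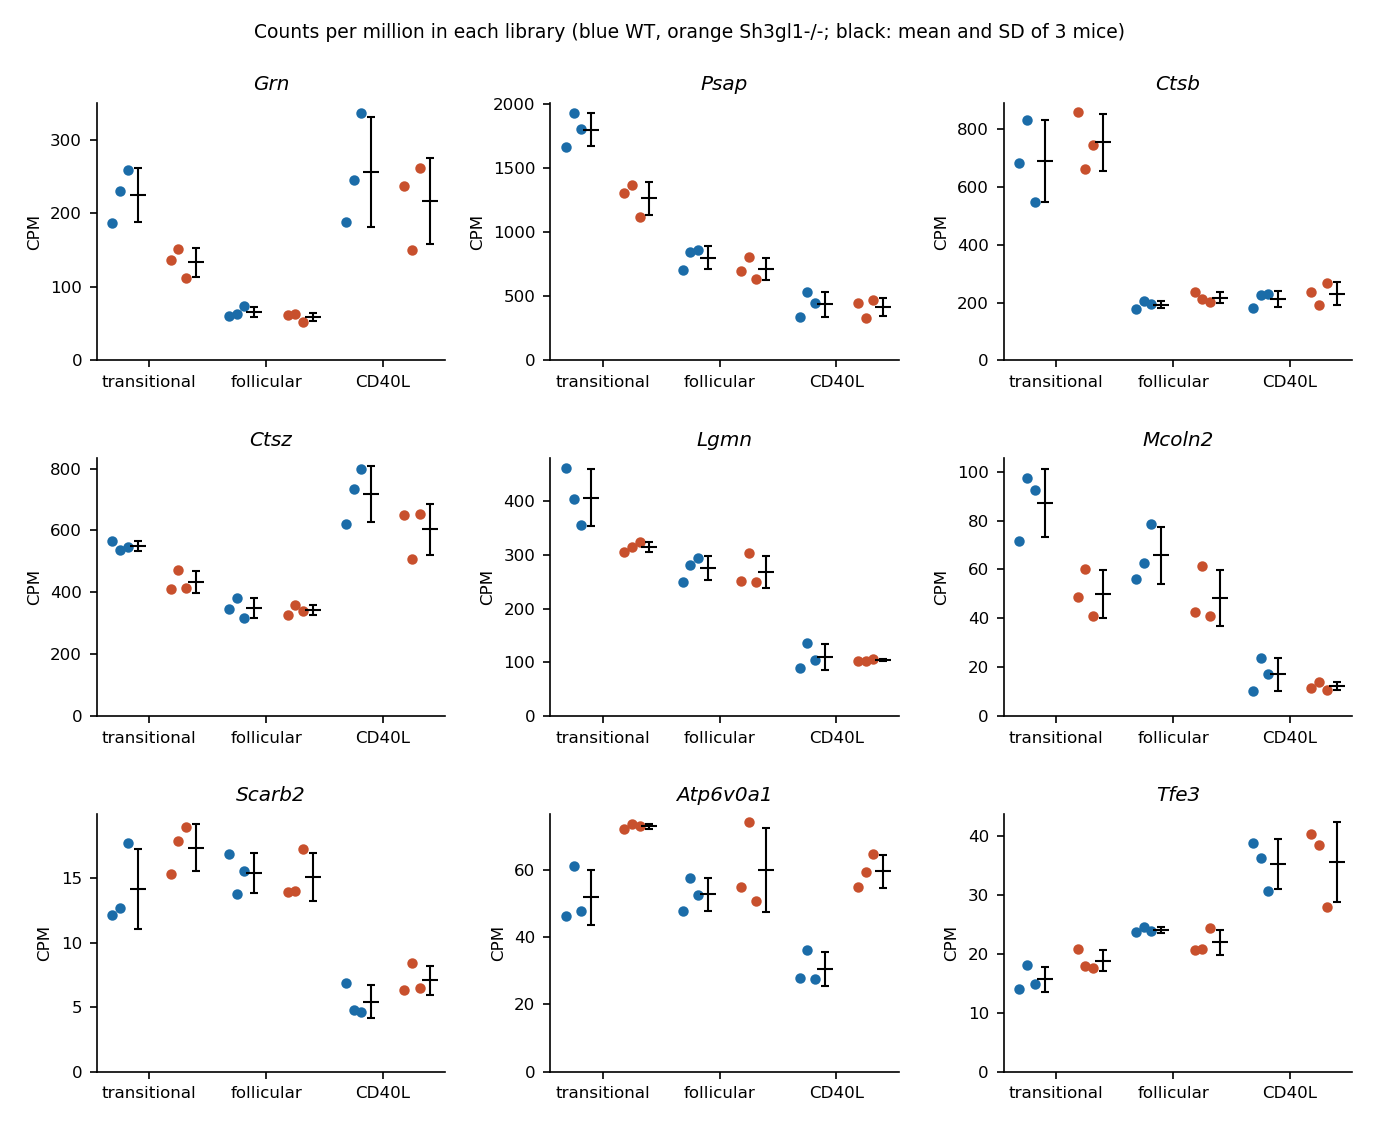
CPM of 9 of the 47 genes in each of the 18 libraries (points, WT and Sh3gl1-/- in separate colours), by cell state, with the mean and SD of the 3 libraries in black. Grn, Psap and Mcoln2 are lower in transitional Sh3gl1-/- than in transitional WT libraries, and Atp6v0a1 is higher in Sh3gl1-/- libraries in the transitional and CD40L-treated states.

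The third comparison set Sh3gl1-/- against WT cells within each state. In transitional cells 4 of the 47 genes (8.51%) were called, 1 higher and 3 lower in Sh3gl1-/-, in a comparison where 3.73% of all genes were called, 1.26% higher and 2.48% lower. Psap was 1666, 1927 and 1799 CPM in WT and 1304, 1364 and 1119 CPM in Sh3gl1-/- libraries (log2 fold change -0.51, standard error 0.09, adjusted p = 0.0266). Grn was 187, 229.9 and 259 against 137, 151 and 112 CPM (log2 fold change -0.75, standard error 0.14, adjusted p = 0.0287), and Mcoln2 was 71.5, 97.5 and 92.6 against 48.8, 60.2 and 40.8 CPM (log2 fold change -0.80, standard error 0.16, adjusted p = 0.0325). All 3 genes were thus lower in every Sh3gl1-/- library than in any WT library. Atp6v0a1 (ENSMUSG00000019302, chromosome 11 from 101009452 to 101063719), which encodes an a subunit of V0, was 46.4, 61.3 and 47.9 CPM in WT and 72.4, 73.6 and 73.0 CPM in Sh3gl1-/- libraries (log2 fold change 0.49, standard error 0.12, adjusted p = 0.0497), again without overlap. Groups did not overlap for 5 genes that were higher and 12 that were lower, against 13.6% and 14.4% of all genes.

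These 4 calls were close to the threshold. None was called in a fit blocked by replicate number, with all 18 libraries in 1 fit, or without WT library 3, Sh3gl1-/- library 1 or Sh3gl1-/- library 3, and 1 was called without WT library 2. DESeq2 called 9 (19.1%, against 9.73% of all genes), which added Ctsd as higher and Ctsz, Lgmn, Ctsc and Atp6v1a as lower in Sh3gl1-/- cells. Lgmn, for example, was 461, 403 and 356 CPM in WT and 306, 316 and 324 CPM in Sh3gl1-/- libraries, without overlap, at an edgeR adjusted p of 0.0795. Other features of the samples moved with the genotype. The macrophage sum was 605 ± 67.0 TPM in WT and 720.0 ± 191 TPM in Sh3gl1-/- transitional cells (mean ± SD, n = 3), higher on average where Grn and Psap were lower, with 0 of 11 genes called, 4 at an unadjusted p under 0.05. Of 5 transitional markers, Cd24a and Ly6d were lower in Sh3gl1-/- cells (log2 fold changes of -0.87 (standard error 0.15, adjusted p = 0.0256) and -0.44 (standard error 0.09, adjusted p = 0.0385)), while Cd93 had 0.22 (standard error 0.15, adjusted p = 0.440). Of 5 follicular markers, Ighd was higher (log2 fold change 0.56, standard error 0.11, adjusted p = 0.0299), while the other 4 had estimates below 0, among them Cr2 with -0.36 (standard error 0.11, adjusted p = 0.108). The markers thus did not move together towards either state. A different mix of early and late transitional cells and a change within these cells cannot be told apart here. All 5 erythroid genes were also higher in transitional Sh3gl1-/- cells, with summed TPM of 7366 ± 2021 in WT and 17077 ± 5839.5 in Sh3gl1-/- cells. Of 5 plasma cell genes 1, Jchain, was higher, with sums of 525 ± 119 and 2467 ± 1464 TPM, and of 8 neutrophil genes 1, Camp, was higher and all 8 had estimates above 0, with sums of 144 ± 39.7 and 553 ± 483 TPM. Of 5 marginal zone genes 1, Cd1d1, was lower, with sums of 313 ± 25.7 and 190.3 ± 23.9 TPM, and all 7 B cell genes had estimates below 0 with 0 called and 6 at an unadjusted p under 0.05. Of 7 T cell genes 0 were called, with 6 estimates above 0, 6 at an unadjusted p under 0.05 and a median of 0.74 on the log2 scale. Without the Sh3gl1-/- libraries numbered 1, none of the erythroid, neutrophil, plasma cell, marginal zone, transitional or follicular genes was called in this comparison, nor was any of the 47, and 0.4% of all genes were. The part of these differences in the 4 calls was not tested.

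In follicular cells 0 of the 47 genes were called by edgeR or DESeq2, with 7 at an unadjusted p under 0.05 by edgeR. Of all genes, 0.845% were called by edgeR and 2.59% by DESeq2, and 1480 of 13610 had an unadjusted p under 0.05 by edgeR. Npc2 was 141, 149 and 150.2 CPM in WT and 179.9, 169 and 175 CPM in Sh3gl1-/- libraries (log2 fold change 0.25, standard error 0.08, adjusted p = 0.234), and Mcoln2 was 56.0, 62.5 and 78.7 against 42.5, 61.6 and 41.1 CPM (log2 fold change -0.44, standard error 0.17, adjusted p = 0.351). The Npc2 values did not overlap and the Mcoln2 values did. Atp6v1b2 completed the 3 lowest p-values, with a log2 fold change of -0.34 (standard error 0.12, adjusted p = 0.304). Of 7 T cell genes 2, Cd3d and Cd3e, were higher in follicular Sh3gl1-/- cells (1 without the libraries numbered 1). Of 5 transitional markers 1, Cd24a, was lower (log2 fold change -0.75, standard error 0.09, adjusted p = 0.00405), also without those libraries, and of 5 follicular markers 1, Ighd, was higher (log2 fold change 0.34, standard error 0.07, adjusted p = 0.0482), though not without them. The part of these genes in the values above was not tested. After CD40L 0 of the 47 were called by edgeR, against 0.0227% of all genes, and 4 had an unadjusted p under 0.05, against 930 of 13190. DESeq2, which called 0.591% of all genes, called 1 of the 47, Atp6v0a1. That gene was 27.8, 36.3 and 27.7 CPM in WT and 54.9, 59.3 and 64.8 CPM in Sh3gl1-/- libraries, a log2 fold change of 0.99 (standard error 0.16, adjusted p = 0.106). Every Sh3gl1-/- library was above every WT library in the CD40L-treated and the transitional state, while the follicular values overlapped at 47.9, 57.7 and 52.7 against 55.0, 74.3 and 50.7 CPM. Ctsh and Atp6v0d1 came next by p, with log2 fold changes of 0.35 (standard error 0.12, adjusted p = 0.629) and 0.35 (standard error 0.12, adjusted p = 0.647), neither of them called.

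Outside the 47, Mcoln3, the third gene of the Mcoln family, was lower in transitional Sh3gl1-/- cells at 13.2 ± 1.91 CPM against 27.9 ± 1.25 CPM in WT (mean ± SD, n = 3; log2 fold change -1.08, standard error 0.14, adjusted p = 0.00928), and Rraga was higher (log2 fold change 0.61, standard error 0.13, adjusted p = 0.0365). They were the only 2 of 84 such genes (2.38%) that edgeR called in transitional cells, against 3.73% of all genes. Mcoln3 alone was called without the Sh3gl1-/- libraries numbered 1. In follicular and in CD40L-treated cells 0 of 80 and 0 of 77 were called, against 0.845% and 0.0227% of all genes. An unadjusted p under 0.05 was found for 12 and 8 of them, against 1480 of 13610 and 930 of 13190 of all genes.

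The genes with and without an E-box were finally set side by side, as a description. Of the 15 genes with CACGTG in the promoter window, 6 fell and 0 rose between transitional and follicular cells in WT, and 4 fell and 0 rose in Sh3gl1-/- cells. Over all genes tested 14.2% fell and 11.7% rose in WT and 6.72% and 3.71% in Sh3gl1-/- cells. Of the 23 genes whose windows lacked it, 11 fell and 2 rose in WT, and 11 fell and 0 rose in Sh3gl1-/- cells. Without the Sh3gl1-/- libraries numbered 1, 2 of the 15 and 4 of the 23 fell in Sh3gl1-/- cells, against 3.44% of all genes. After CD40L, 6 of the 15 fell and 2 rose in WT, against 5 and 6 of the 23. In Sh3gl1-/- cells these counts were 6 lower and 1 higher of the 15, and 3 lower and 6 higher of the 23, or 4 lower and 1 higher and 2 lower and 3 higher without the libraries numbered 1. Over all genes tested 25.7% fell and 23.6% rose after CD40L in WT and 21.7% and 20.6% in Sh3gl1-/- cells. The difference between these counts was not tested. After CD40L, Lgmn, Ctsa and Mcoln2, which fell, and Atp6v1a and Gla, which rose in WT, carry the letters in their windows, whereas Grn and Ctsz, which rose, and Psap and Scarb2, which fell, do not. The absence of the letters in a window says nothing of a site elsewhere.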

How the data were processed

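RNA of 18 B cell libraries (3 mice in each of 6 groups) was sequenced, and p-values measure the spread between these mice. The study gives 3 mice of each genotype, so libraries of different states may come from the same mice. The main fits did not pair libraries across states. The authors deposited expected counts, TPM and FPKM per gene in 1 table of 51912 genes, and per the submitters' notes these came from cutadapt 1.9.1, STAR 2.5.2a and RSEM 1.3.0 on GRCm38. The study's text names another aligner, library kit and culture time than the labels, whose culture time is given here. The use of strand in counting is not given in the sources used here. Genes that overlap on opposite strands (among others Ctsb, Ctsz, Ctsc, Ctsa, Ppt1, Npc1, Lamp1, Atp6v1b2 and Cln3) may thus share reads. The deposited expected counts (10.3% to 11.6% not whole per library) were rounded before testing. Gene symbols were matched through GENCODE M21.

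Genes passing edgeR's filterByExpr were fitted by its quasi-likelihood test (edgeR 4.0.16, limma 3.58.1, R 4.3.3) with TMM scaling, on the 12 untreated libraries (14580 genes), on the 12 follicular libraries (14460 genes), and on the 6 libraries of each state for Sh3gl1-/- against WT (13775, 13610 and 13190 genes). A gene was called at a Benjamini-Hochberg adjusted p under 0.05 over all genes tested. The SE was taken from the log2 fold change and the F statistic. CPM used the TMM factors of all 18 libraries, and a count of 3 was taken as the floor. The code for these steps was tested on simulated data.

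Alternatives were DESeq2 1.42.0, RLE scaling, library totals alone, other filters, 1 fit of all 18 libraries, a replicate block, and each library left out in turn. Added after the data were seen were a replicate block within genotype and the omission of the Sh3gl1-/- libraries numbered 1. Deviations of samples with the same number correlated at 0.103 to 0.263 between transitional and follicular libraries in each genotype. Between follicular and CD40L-treated libraries they correlated at 0.136 to 0.224 in WT and at 0.0303 to 0.119 in Sh3gl1-/-. Samples with different numbers were not correlated in this way, so these values do not settle whether the same number means the same mouse. The genes and lists were chosen with earlier results of these data known. In the named-gene rule, each state comparison gives the 5 called, non-overlapping genes with the largest rise and fall, and each genotype comparison gives all genes called or, if none, the 3 with the lowest p. The other lysosomal genes follow the same rule with 3 each way, and the highest and lowest gene by role, Tfeb, Tfe3, Lamp1 and Lamp2 were always kept. Levels between genes were compared in TPM, and ranking by the authors' FPKM instead changed no rank except 2 in CD40L-treated Sh3gl1-/- cells.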

Additional observations from a re-analysis of the deposited data

Results flagged for a closer look

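Ctsh was singled out because every Sh3gl1-/- library moved one way in follicular cells and the other way after CD40L. In follicular cells it was 489, 486 and 517 CPM in WT and 459.7, 479 and 465 CPM in Sh3gl1-/- libraries, lower in all 3 (log2 fold change -0.09 (standard error 0.07, adjusted p = 0.727) by edgeR's quasi-likelihood test). After CD40L it was 282, 288 and 248 CPM in WT and 342, 332 and 346 CPM in Sh3gl1-/- libraries, higher in all 3 (log2 fold change 0.35, standard error 0.12, adjusted p = 0.629). The test of the difference between the genotype effects gave a log2 difference of 0.42 (SE 0.12, adjusted p = 0.464), and DESeq2 gave an adjusted p of 0.0412.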

How the results depend on the processing

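Over all 47 genes and comparisons the alternatives gave 7861 values, of which 167 lost a call, 76 gained one, and none that was called turned direction. Of 252 counts, 219 stayed within 1.5 times the reported count. With all 18 libraries in 1 fit, the genes that rose in WT between transitional and follicular cells went from 2 to 1, those that fell in Sh3gl1-/- cells from 17 to 9, the calls in transitional Sh3gl1-/- against WT cells from 4 to 0, and those after CD40L from 0 to 1. Of all 15117 genes in that fit, 1267 rose in WT and 698 fell in Sh3gl1-/- cells between transitional and follicular cells. For Sh3gl1-/- against WT, 75 were higher and 69 lower in transitional cells, and 48 and 34 after CD40L. DESeq2 gave 1 gene that rose in Sh3gl1-/- cells between transitional and follicular cells, 1 genotype difference in the response to CD40L, 9 calls in transitional and 1 in CD40L-treated Sh3gl1-/- against WT cells. The DESeq2 shares of all genes for these 4 results were 5.37%, 0.173%, 9.73% and 0.591%. With all genes of at least 1 count, the genotype difference between transitional and follicular cells gave 1 call (Grn), that in the CD40L response 2 (Atp6v1b2 and Atp6v0a1), and Sh3gl1-/- against WT gave 8, 1 and 1 calls in transitional, follicular and CD40L-treated cells. Of all genes, this filter called 248 higher and 205 lower of 26755, and 129 and 79 of 26244, in the genotype differences. For Sh3gl1-/- against WT it called 573 and 842 of 24744, 340 and 262 of 24175, and 133 and 83 of 23394. Library totals alone gave 4 higher and 19 lower genes after CD40L in WT.

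The plain replicate block left 0 calls in transitional Sh3gl1-/- against WT cells. With the block within genotype, 1 gene rose in Sh3gl1-/- cells between transitional and follicular cells and 1 genotype difference was called, and no other count over all 47 genes moved by more than 1.5 times. Of all genes, 4.98% rose and 0.679% were called in the same tests. Leaving out 1 library gave 1 to 2 higher and 16 to 20 lower genes in WT and 0 to 1 higher and 10 to 18 lower genes in Sh3gl1-/- cells between transitional and follicular cells, 4 to 8 higher and 9 to 14 lower in WT and 6 to 9 higher and 8 to 10 lower in Sh3gl1-/- cells after CD40L, 0 genotype differences in either step, and 0 to 5 calls in transitional, 0 in follicular and 0 in CD40L-treated Sh3gl1-/- against WT cells. Leaving out the 3 Sh3gl1-/- libraries numbered 1 together gave, in Sh3gl1-/- cells, 7 lower genes between transitional and follicular cells and 5 higher and 7 lower genes after CD40L, and 0 calls in transitional Sh3gl1-/- against WT cells. In Sh3gl1-/- cells after CD40L the block within genotype moved Lipa from an adjusted p of 0.0437 to 0.0659. The cause of these shifts was not tested. With 3 mice per group an exact permutation test of 1 gene cannot go below 0.1, and low genes rest on few counts, Ctsl on 18 to 37 per library in CD40L-treated WT cells and Cd63 on 20 to 77 over all libraries.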

Other observations

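Genes of other B cell states were measured in the same libraries. Of 6 genes of activated B cells 5 rose in WT and 6 in Sh3gl1-/- cells after CD40L. The summed TPM of 6 dendritic cell genes was 6.54 ± 2.06 in transitional WT and 9.62 ± 5.14 in transitional Sh3gl1-/- cells (mean ± SD, n = 3). The erythroid sum was 6883 ± 3135 and 13762 ± 6504 TPM in follicular WT and Sh3gl1-/- cells and 285 ± 421 and 145 ± 87.0 TPM after CD40L.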
